A study of Mus musculus with 4 samples.

Results

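The guanylate-binding protein family was followed through the leukocytes of the inflamed mouse spinal cord as 9 genes, Gbp2, Gbp2b, Gbp3, Gbp4, Gbp5, Gbp6, Gbp7, Gbp8 and Gbp9, of the 32285 genes listed in each count matrix. The genes were taken by symbol, and all 9 had transcripts in each of the 4 libraries. The cells were sorted CD45+ cells (CD45 marks all leukocytes) of the spinal cord of C57BL/6 mice with EAE (experimental autoimmune encephalomyelitis), in which T cells attack the myelin of brain and spinal cord. In 2 libraries the mice had received Reg1-MOs and in 2 libraries Ctrl MO, in both cases into the brain on day 9 after immunisation, with collection on day 16. The sources used here spell out neither Reg1 nor MO. Reg1 is read here as Regnase-1 (gene Zc3h12a), which cuts the mRNAs of many inflammatory genes, and MO as morpholino, an antisense oligomer. All 4 libraries came from EAE mice, so no healthy tissue enters any comparison, and nothing states how many animals went into a library or whether the libraries came from separate animals. The p-values below therefore measure only the spread between libraries.

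Guanylate-binding proteins are large interferon-induced GTPases related to dynamin. Interferon-γ is their strongest known inducer, and type I interferon induces many of them too. In infected cells they assemble on pathogen-containing vacuoles and on bacteria, and they promote inflammasome activation and pyroptosis. In EAE the main sources of interferon-γ are T cells and NK cells, and infiltrating monocytes, macrophages and resident microglia respond to it.

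In the mouse genome (GRCm38, GENCODE M21) the family lies in 2 clusters. Gbp5 (chr3:142493978-142522344), Gbp7 (chr3:142530342-142550149), Gbp3 (chr3:142560026-142573209), Gbp2b (chr3:142594847-142619179) and Gbp2 (chr3:142620602-142638008) lie side by side on the plus strand. Gbp8 (chr5:105014150-105139540), Gbp9 (chr5:105077630-105139539), Gbp4 (chr5:105115767-105139586) and Gbp6 (chr5:105270702-105293698) lie on the minus strand, and the annotated spans of Gbp8, Gbp9 and Gbp4 overlap at their 5′ ends. Since 3′ ends were sequenced, the last 500 bases of each transcript were cut into 410 windows of the 91-base read length. For Gbp6, 268 windows (65.4%) were also found in another gene, Gbp10 or Gm43302, so the Gbp6 count may include or miss reads of these copies. For the other 8 genes no window was shared.

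Promoter stretches of the 5 chromosome 3 genes are shown because Gbp2, Gbp3 and Gbp7 are among the genes that rose below. The same interferon-type motif was also found before a RefSeq start site of each of the 5 genes. The motif searched was the interferon-stimulated response element, written as GAAANNGAAA and read on both strands. It was present in at least 1 promoter entry of 5 of the 5 genes searched. Counted per entry and not per gene, 1131 of the 32851 mouse promoters of the same length held it (3.44%). Each 30-base stretch is given on the plus strand, 5′ to 3′, with the motif in capitals (RefSeq, GRCm38.p6).
Gbp5, chr3:142496759-142496788: acttgtgtagTTTCAATTTCagtttagaga
Gbp7, chr3:142530273-142530302: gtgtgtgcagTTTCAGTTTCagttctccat
Gbp3, chr3:142559989-142560018: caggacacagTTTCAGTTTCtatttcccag
Gbp2b, chr3:142594700-142594729: gtacttctaaTTTCACTTTCttctttatca
Gbp2, chr3:142620594-142620623: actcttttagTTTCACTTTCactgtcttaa

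The motif began 165 bases before the RefSeq start site of Gbp5, 53 before that of Gbp7, 45 before that of Gbp3, where a second match overlapped the first, 137 before that of Gbp2b and 59 before that of Gbp2. A second RefSeq promoter entry of Gbp3 had no match. By the GENCODE spans above, which start at 142493978 for Gbp5 and 142620602 for Gbp2, the motifs of both lie inside the annotated gene. A second motif was searched on both strands, the gamma-activated site, written as TTCNNNGAA. It occurred in Gbp5 and Gbp7, with 2 matches each, against 2726 of the 32851 promoters (8.30%), and 149 promoters (0.454%) held both motifs.

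A match is a description of the letters only. The chromosome 5 genes Gbp4, Gbp6, Gbp8 and Gbp9 were not searched for either motif.

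After filtering, 8052 and 4949 cells of the Reg1-MO libraries and 7536 and 6266 cells of the Ctrl-MO libraries were used, from totals of 174552218 and 75472324 UMIs against 137995955 and 94577206 UMIs. A UMI is 1 counted transcript molecule, and CPM are UMI counts scaled to equal library totals. Zc3h12a stood at 58.4 and 67.5 CPM over all Reg1-MO cells, against 57.4 and 69.9 over all Ctrl-MO cells. As no target site is given, this level does not check the labels. Library Ctrl-MO 2 stood apart from the others. Its family level was the lowest of the 4 libraries in 13 of 13 cell classes, and it supplied 875 of the 1040 cells of a macrophage-like cluster led by Saa3, Gpnmb and Apoe and 471 of the 533 cells of a microglia-like cluster led by Ccl3. The main comparisons are also given without it; each such fit leaves 1 group with 1 library, which is assumed to vary like the other group.

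Cells were grouped into classes from marker genes after clustering without the Gbp genes, and their names carry "-like", since transcripts are the only evidence for them. Among the named classes, the mean family level was highest in microglia-like and macrophage-like cells and lowest in neutrophil-like cells. Unnamed cluster 14, in which neutrophil markers were detected, is described below and is not part of the neutrophil-like class. Its family level over all its cells was 2670 CPM, and the lowest place of neutrophil-like cells by mean depends on leaving it out. Summed over the 9 genes, the mean of the 4 libraries was 843 ± 364 CPM (SD, n = 4) in microglia-like cells and 764 ± 476 in macrophage-like cells. It was 715 ± 296 in γδ T-like, 707 ± 272 in migratory dendritic cell-like, 695 ± 125 in regulatory T-like and 536 ± 347 in conventional dendritic cell-like cells. CD8 T-like cells had 432 ± 74.995, all T-like cells together 399 ± 89.3, B/plasma-like cells 367 ± 182, CD4 T-like cells 299 ± 87.4 and NK/ILC1-like cells 283 ± 52.6. Plasmacytoid dendritic cell-like cells had 88.0 ± 24.5 and neutrophil-like cells 49.3 ± 31.6. Among neighbours in this order, NK/ILC1-like and plasmacytoid dendritic cell-like cells were the only pair whose 4-library ranges did not overlap. All other neighbouring classes overlapped in range. Compared within each library, plasmacytoid dendritic cell-like cells still stood above neutrophil-like cells in 4 of 4 libraries. Each other overlapping class stood above the next in only 2 or 3 of the 4 libraries. Without Reg1-MO 1, macrophage-like cells (624 ± 471, SD, n = 3) stood below regulatory T-like cells (674 ± 145). Without Ctrl-MO 2 the means ran from 1009 ± 183 (SD, n = 3) in microglia-like to 59.9 ± 28.8 in neutrophil-like cells, B/plasma-like cells moved above all T-like cells together, and all T-like and CD4 T-like cells were a second pair of neighbours with no overlap.

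**Figure D1:**
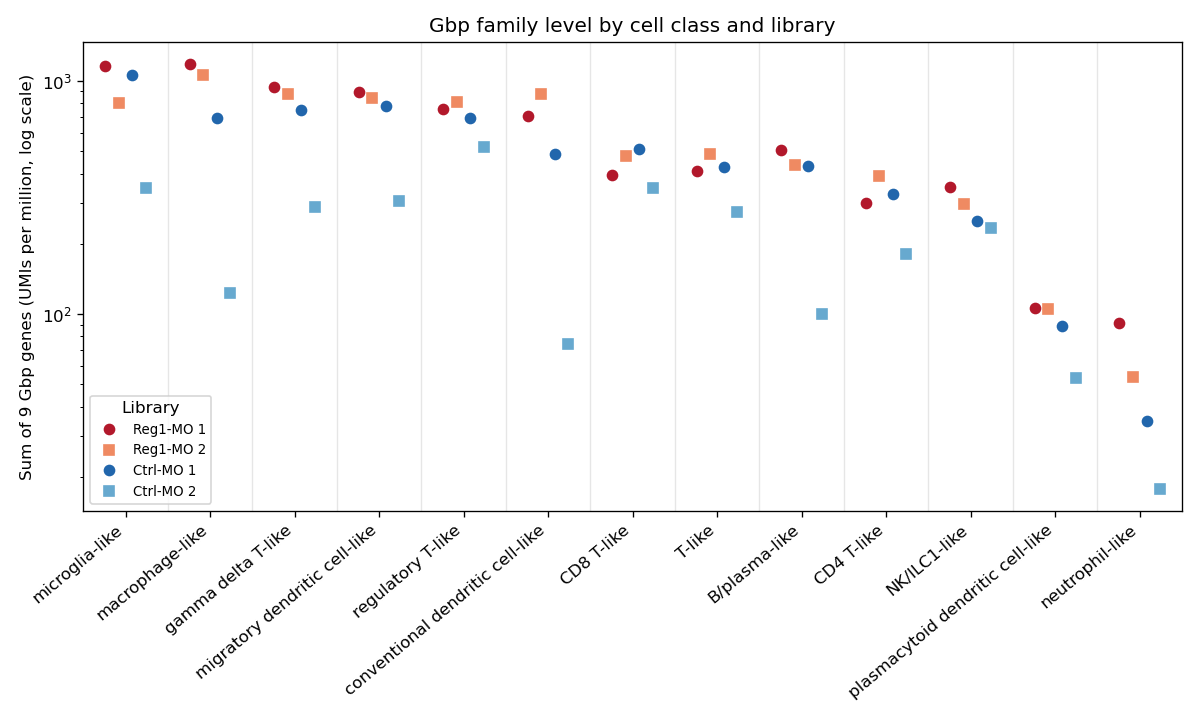
CPM summed over the 9 Gbp genes (log axis) in each of 13 cell classes, 1 point per library. Reg1-MO libraries are red and Ctrl-MO libraries blue. Ctrl-MO 2, the light blue square, is the lowest point in every class, and both Reg1-MO points lie above both Ctrl-MO points in 9 of the 13 classes.

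By the mean share of the 4 libraries, the gene that led the family differed by lineage. Gbp2, which in mice helps to restrict Toxoplasma and to expose bacterial products to inflammasomes, made up 47.0% ± 7.89 (SD, n = 4 libraries) of the family's UMIs in macrophage-like cells, 37.9% ± 12.3 in microglia-like and 47.7% ± 7.75 in migratory dendritic cell-like cells. It made up 13.02% ± 4.31 in regulatory T-like cells. The lead of Gbp2 did not hold in every library: in the microglia-like cells of Ctrl-MO 2 Gbp5 stood above it, with 77.4 against 68.3 normalised CPM. Gbp7, which in mice takes part in the assembly of the phagocyte NADPH oxidase, led in T-like, CD4 T-like, CD8 T-like, regulatory T-like and NK/ILC1-like cells, with 29.4% ± 1.80 in regulatory T-like and 26.3% ± 1.81 in all T-like cells, and stood at 14.5% ± 4.04 in macrophage-like cells. In the other lymphocyte classes Gbp2 led, with 24.2% ± 9.90 in γδ T-like and 31.4% ± 11.6 in B/plasma-like cells. These shares compare 3′ UMI counts, which do not scale with transcript length.

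Gbp5, known in mice for promoting NLRP3 inflammasome assembly, had its highest level in migratory dendritic cell-like cells. There it stood at 253 and 212 CPM in the Reg1-MO libraries, against 265 and 93.7 in the Ctrl-MO libraries, and made up 29.5% ± 3.77 of the family, while Gbp7 made up 2.73% ± 2.42. The groups overlapped, and the 93.7 rests on 8 UMIs in 9 cells. Gbp4, Gbp6 and Gbp8 were highest in γδ T-like cells, Gbp6 with 202 and 127 CPM in the Reg1-MO libraries, against 113 and 54.1 in the Ctrl-MO libraries, the last from 17 cells. Gbp6 protein is recruited to Toxoplasma vacuoles in mice. Gbp3 and Gbp7 were highest in regulatory T-like cells and Gbp9 in CD8 T-like cells. In plasmacytoid dendritic cell-like cells Gbp8 and Gbp4 led with 26.5% and 22.5% of a low total.

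Gbp2b, the gene of the mouse GBP1 protein, was the rarest member. Over all cells it had 240 and 38 UMIs in the Reg1-MO libraries, against 109 and 17 in the Ctrl-MO libraries. Its mean share was 0.90% in regulatory T-like cells and 5.47% ± 10.9 in γδ T-like cells, where the value came from 7 UMIs in the 17 cells of Ctrl-MO 2 and the other 3 libraries had 0 UMIs. It is thus barely measurable in most classes.

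**Figure D2:**
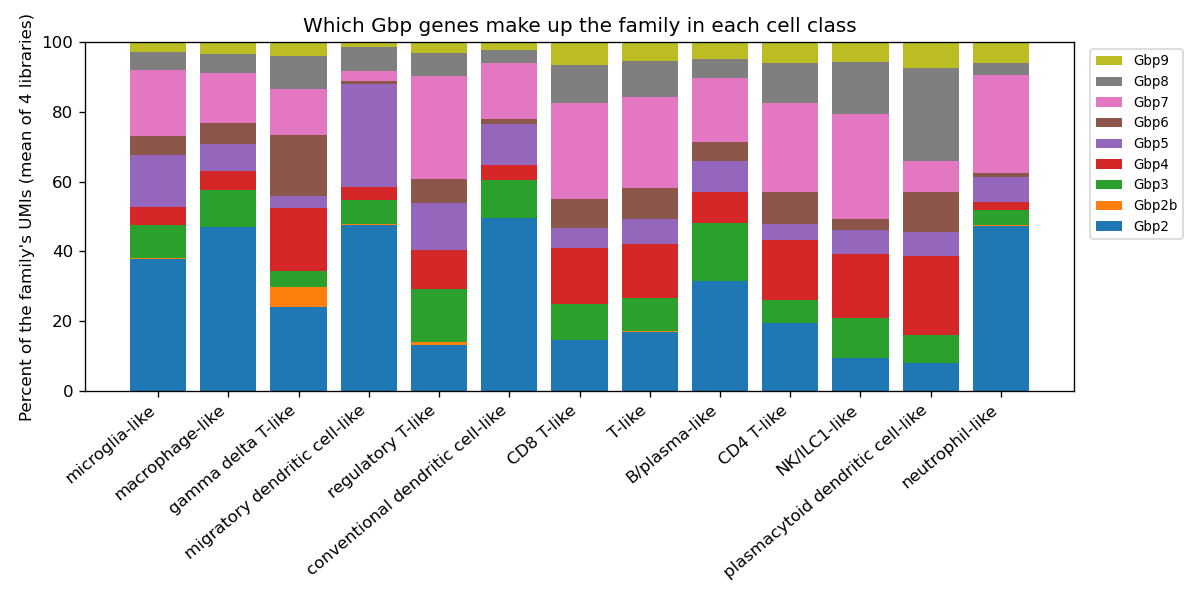
Share of the family's UMIs (percent, mean of 4 libraries) held by each of the 9 Gbp genes in 13 cell classes, stacked to 100. Gbp2 is the largest segment in macrophage-like, microglia-like, conventional and migratory dendritic cell-like, neutrophil-like, γδ T-like and B/plasma-like cells, and Gbp7 in T-like, CD4, CD8, regulatory T-like and NK/ILC1-like cells.

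The comparison of Reg1-MO with Ctrl-MO asks whether the interferon-type response of each cell class differs after the treatment. UMIs were summed per library and class, normalised with TMM factors and tested with edgeR's quasi-likelihood test over all genes of the class. The threshold for a call was an adjusted p (Benjamini-Hochberg) below 0.05. By this test 0 members were called in all cells together and in each of the 8 classes tested, and DESeq2 called 0 of those to which it gave an adjusted p (none in NK/ILC1-like cells). Of all genes, edgeR called 0% higher in Reg1-MO in all cells and in macrophage-like, microglia-like, T-like and CD8 T-like cells, 0.394% in neutrophil-like, 0.113% in NK/ILC1-like, 0.0447% in CD4 T-like and 0.0114% in regulatory T-like cells. At an unadjusted p under 0.05 the counts were 0 of 9 members in macrophage-like cells (19% of all genes), 0 of 9 in microglia-like cells (2.47%) and 0 of 9 in T-like cells (10.6%). They were 5 of 7 in neutrophil-like cells (12.5%) and 4 of 9 in regulatory T-like cells (11.8%). Within 1 macrophage-like cluster, however, 4 members were called, as described below.

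Macrophage-like cells were named from marker transcripts of macrophages and monocytes, and their origin was not tested. Their family level was 1212 and 1060 normalised CPM in the Reg1-MO libraries, against 678 and 123 in the Ctrl-MO libraries, a log2 ratio of the group means of 1.504. Both Reg1-MO libraries stood above both Ctrl-MO libraries, and the 2 Ctrl-MO libraries differed from each other by 5.53-fold. All 9 members had a log2 fold change above 0 (48.5% of all genes), with a median of 1.48 against -0.01 over the 13165 genes tested. In 7 of 9 members both Reg1-MO libraries were above both Ctrl-MO libraries, against 29.0% of all genes, and DESeq2 called 2.43% of all genes higher.

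Gbp2 had 652 and 541 normalised CPM in the Reg1-MO macrophage-like cells, against 320 and 44.0 in the Ctrl-MO cells. Its log2 fold change was 1.71 ± 0.87 (SE; edgeR's quasi-likelihood test, adjusted p = 0.334). Gbp5 had 100.1 and 100.5, against 48.0 and 7.30, with a log2 fold change of 1.85 ± 0.81 (edgeR, adjusted p = 0.286). Without Ctrl-MO 2 the log2 fold changes were 0.90 for Gbp2 and 1.06 for Gbp5. In both genes the groups did not overlap, and the lower Ctrl-MO value was many times below the other.

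Gbp3 had 114 and 120, against 69.5 and 13.5 (1.48 ± 0.71, edgeR adjusted p = 0.318). Human GBP3 is known to work with GBP1, GBP2 and GBP4 on cytosolic bacteria. Gbp7 had 132 and 130, against 99.1 and 24.6, and Gbp4 75.7 and 59.6, against 41.1 and 4.74. Gbp8 had 56.5 and 44.0, against 39.5 and 9.14, and Gbp9 26.6 and 28.7, against 20.3 and 6.51. For these 5 genes, too, neither group reached into the other. The exceptions were Gbp6, with 52.9 and 36.1 against 40.02 and 12.8, and Gbp2b, with 1.95 and 0.545 against 0.574 and 0, where the groups overlapped.

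Which control library was kept decided the size of this difference. Without Ctrl-MO 1 the log2 ratio of the family sum was 3.21 and edgeR called 9 of 9 members (9.79% of all genes were then called higher in Reg1-MO). Without Ctrl-MO 2 the ratio was 0.74 and 2 members were called, Gbp3 and Gbp5 (0.534% of all genes). Without the filter on low counts edgeR called 9 of 9 members (5.03% of all genes). The called members were higher in Reg1-MO in each of these fits, and without either Reg1-MO library 0 were called (0% of all genes).

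**Figure D3:**
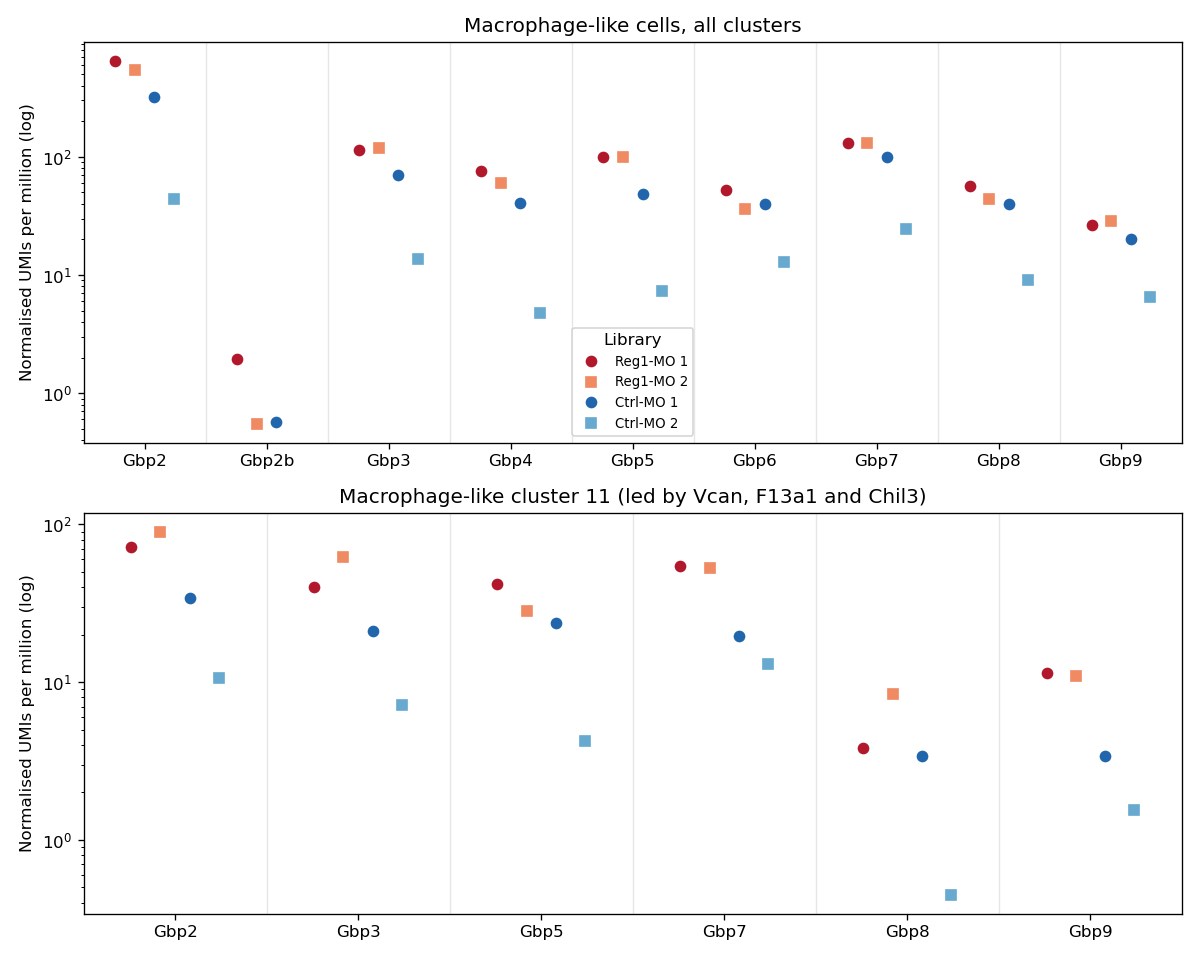
Normalised CPM (log axis) of each tested Gbp gene in macrophage-like cells (upper panel) and in macrophage-like cluster 11 (lower panel), 1 point per library. Reg1-MO libraries are red and Ctrl-MO libraries blue. A value of 0 (Gbp2b in Ctrl-MO 2) is not drawn. In both panels Ctrl-MO 2 is the lowest point of every gene, and in cluster 11 both Reg1-MO points lie above both Ctrl-MO points for all 6 genes.

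The macrophage-like class is a mixture of clusters that differ in family level, and their shares differed between libraries. Cluster 5, led by Plac8, Cxcl10 and Cxcl9, had the highest family level of the 5, with 2373 and 1986 CPM in the Reg1-MO libraries, against 1761 and 1013 in the Ctrl-MO libraries. It held 27.6% and 37.5% of the macrophage-like cells of the Reg1-MO libraries, against 14.6% and 1.3% of those of the Ctrl-MO libraries (19 cells in Ctrl-MO 2). Cluster 10, led by Saa3, Gpnmb and Apoe, had 217 and 229 CPM, against 288 and 98.2, and held 1.6% and 1.1% of the class in Reg1-MO, against 5.7% and 61.9% in Ctrl-MO. Cluster 11 was low too, with 232 and 260 CPM, against 107 and 36.9. It held 3.4% and 11.1% of the class in Reg1-MO, against 19.0% and 27.9% in Ctrl-MO. Both Reg1-MO libraries thus held more of the class in cluster 5 and less of it in clusters 10 and 11 than both Ctrl-MO libraries. With the shares of clusters 0 and 11, the 2 of 5 with enough cells in every library, held equal, the family level was 803 and 596, against 539 and 314, a log2 ratio of 0.71.

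**Figure D4:**
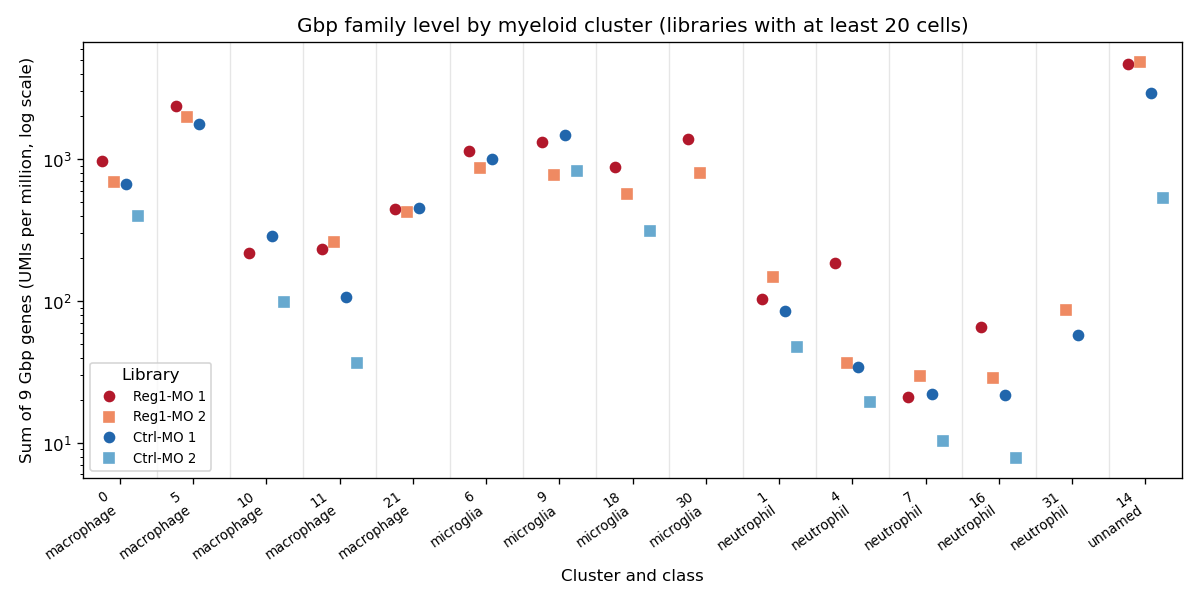
CPM summed over the 9 Gbp genes (log axis) in each macrophage-like, microglia-like and neutrophil-like cluster and in unnamed cluster 14, 1 point per library with at least 20 cells in the cluster. Reg1-MO libraries are red and Ctrl-MO libraries blue. Cluster 5 (Ctrl-MO 2 has 19 cells there and is not drawn) is the highest of the macrophage-like clusters, cluster 14 is the highest of all those shown in each library but Ctrl-MO 2, where cluster 9 is higher, and in clusters 0, 1, 4, 11, 14 and 16 both Reg1-MO points lie above both Ctrl-MO points.

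Of the macrophage-like clusters, only 0 and 11 had enough cells in every library for the test, and members passed it in cluster 11. Clusters 5, 10 and 21 were not tested. Cluster 11 was led by Vcan, F13a1 and Chil3, genes known from monocytes. It held 93 and 126 cells in the Reg1-MO libraries, against 360 and 394 in the Ctrl-MO libraries. Its family level was 231 and 256 normalised CPM in Reg1-MO, against 108 and 37.8 in Ctrl-MO, a log2 ratio of 1.74 (1.17 without Ctrl-MO 2). Of the 6 members with enough UMIs to be tested, 4 rose in Reg1-MO by edgeR's quasi-likelihood test (adjusted p under 0.05), against 4.24% of the 9459 genes tested. All 6 had both Reg1-MO libraries above both Ctrl-MO libraries, against 26.9% of all genes.

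Gbp7 rose most clearly in cluster 11, with 54.2 and 52.8 normalised CPM in Reg1-MO, against 19.6 and 13.1 in Ctrl-MO. Its log2 fold change was 1.71 ± 0.22 (SE; edgeR, adjusted p = 0.000787). Gbp2 rose to 72.3 and 90.1, against 34.3 and 10.7 (1.89 ± 0.36, edgeR adjusted p = 0.00739). The Reg1-MO values of both genes were close to each other, and the gap to the nearer Ctrl-MO library was more than the gap within Reg1-MO.

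Gbp3 rose to 39.9 and 62.4, against 21.2 and 7.12 (1.91 ± 0.38, edgeR adjusted p = 0.00875), and Gbp9 to 11.4 and 10.9, against 3.38 and 1.56 (2.17 ± 0.46, edgeR adjusted p = 0.0135). Gbp9 rests on 12 and 17 UMIs, against 14 and 7. Gbp5 had 41.9 and 28.3, against 23.7 and 4.23 (1.32 ± 0.53, edgeR adjusted p = 0.160), and Gbp8 3.80 and 8.37, against 3.38 and 0.445 (1.77 ± 0.73, edgeR adjusted p = 0.168). These 2 genes did not pass, although their fold changes were of like size. Gbp4 and Gbp6 had 2 to 6 UMIs in the libraries where they were seen, except that Gbp4 had 0 in Ctrl-MO 2, and Gbp2b had 0 UMIs in each library, so these 3 were not tested.

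The call in cluster 11 held in part when the method or the libraries changed. DESeq2 called Gbp3 and Gbp7 (1.96% of all genes were called higher by DESeq2). Without Ctrl-MO 2 edgeR called Gbp2, Gbp3 and Gbp7 (2.84% of all genes), and without Reg1-MO 2 it called Gbp2 and Gbp7 (1.91%). Gbp7 was called in each of these fits. Neutrophil marker transcripts moved with the groups in the same cells: the 12 markers summed to 1147 and 1086 CPM in Reg1-MO, against 4411 and 6668 in Ctrl-MO, all 12 with UMIs. The 8 T cell markers summed to 43.0 and 2.61, against 10.0 and 4.77. The part of these transcripts in the result was not tested.

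Other interferon genes rose in cluster 11 with the family. Of 14 tested genes of interferon-γ signalling and feedback, 6 rose by edgeR's quasi-likelihood test and 0 fell. Among those that rose, the feedback inhibitor Socs1 had 34.2 and 20.6 normalised CPM in Reg1-MO, against 5.55 and 4.67 in Ctrl-MO, and the MHC class II regulator Ciita 15.2 and 28.3, against 4.59 and 4.67. Of 5 tested immunity-related GTPases, the other GTPase family that acts on vacuoles, 4 rose, with Irgm1 at 60.9 and 57.3, against 26.8 and 9.12. Of 12 tested type I interferon-induced genes 8 rose, with Irf7 at 95.1 and 149, against 33.6 and 22.3, and Isg15 at 33.3 and 71.4, against 8.21 and 4.90.

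Among the 5 interferon-γ-induced chemokine and MHC genes 4 rose in cluster 11, with Cxcl10, a chemokine for T cells, reaching 191 and 125, against 47.6 and 44.9. Both Reg1-MO libraries were above both Ctrl-MO libraries for 3 of the 5 (26.9% of all genes), so not all that rose had separate groups. Among 9 inflammasome and pyroptosis partners of the family 2 rose, Il1b at 1282 and 1274, against 1000.4 and 815, and Casp1 at 104 and 107, against 77.5 and 58.3. DESeq2 called fewer genes of most of these lists: 3 of 14 interferon-γ signalling genes, 1 of 5 immunity-related GTPases, 1 of 5 chemokine and MHC genes, 1 of 9 inflammasome partners and 8 of 12 type I interferon-induced genes (1.96% of all genes). The background in this cluster by edgeR was 4.24% called higher. The median log2 fold change was 1.83 for the 6 tested members, 1.73 for the immunity-related GTPases, 1.63 for the type I interferon-induced genes, 0.45 for the interferon-γ signalling genes, 0.18 for the inflammasome partners and -0.01 for all genes.

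Cluster 0, the macrophage-like cluster led by Arg1, Ly6i and Tgfbi, held 1657 and 524 cells in Reg1-MO, against 1037 and 118 in Ctrl-MO. Its family level was 982 and 696, against 656 and 394 normalised CPM (log2 ratio 0.68, and 0.35 without Ctrl-MO 2). In 5 of 9 members the libraries of the groups did not overlap and Reg1-MO was above (23.9% of all genes), and edgeR called 0 members (0.0581% of all genes), or 3 without Reg1-MO 2 (0.536%). Gbp5 had 80.0 and 59.8, against 40.9 and 33.4, with a log2 fold change of 0.87 ± 0.17 (edgeR adjusted p = 0.128, DESeq2 adjusted p = 0.0120; DESeq2 called 0.622% of all genes higher). Ciita rose in this cluster too, with 94.3 and 91.0, against 46.9 and 47.1 (edgeR adjusted p = 0.0361). The neutrophil markers summed to 513 and 460 CPM, against 1762 and 1008, and their part in the result was not tested.

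Over the whole macrophage-like class the related lists had no called gene by edgeR, but their genes were mostly on the Reg1-MO side. Both Reg1-MO libraries were above both Ctrl-MO libraries for 13 of 15 interferon-γ signalling genes, 6 of 7 immunity-related GTPases, 12 of 14 tested type I interferon-induced genes, 8 of 9 inflammasome partners and 5 of 5 chemokine and MHC genes (29.0% of all genes). Il1b, the gene of interleukin-1β, had 3218 and 4261 normalised CPM in Reg1-MO, against 2013 and 1075 in Ctrl-MO (edgeR adjusted p = 0.209, DESeq2 adjusted p = 0.00444). T cell transcripts in these cells were on the same side, with 6 of 6 listed genes above in both libraries. The 8 T cell markers summed to 24.5 and 37.0 CPM, against 16.2 and 9.57, where T-like cells had 6077 and 6644, against 5643 and 5515. Neutrophil markers in macrophage-like cells summed to 694 and 1386, against 2058 and 3053. The part of either in the family's result was not tested.

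Microglia-like cells were named from marker transcripts of microglia, the resident macrophages of the tissue. Their family levels were 1218 and 758 normalised CPM in the Reg1-MO libraries, against 1104 and 337 in the Ctrl-MO libraries (log2 ratio 0.46). The groups overlapped. Gbp2 had 584 and 296, against 490 and 68.3 (0.66 ± 0.95, edgeR adjusted p = 0.998). Gbp5 was the only member with both Reg1-MO libraries above, with 121 and 121, against 116 and 77.4 (0.32 ± 0.27, edgeR adjusted p = 0.998), that is 1 of 9 members against 17.3% of all genes. Without Ctrl-MO 2 the log2 ratio of the family sum was -0.16.

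The microglia-like libraries also differed in makeup. Cluster 18 held 1.7% and 2.3% of the class in Reg1-MO, against 3.7% and 91.1% in Ctrl-MO, and cluster 6 held 70.0% and 17.4%, against 68.3% and 2.7%. Cluster 9 was the only one with enough cells in every library, and within it the family level was 1328 and 776 CPM in Reg1-MO, against 1465 and 827 in Ctrl-MO (log2 ratio -0.12). Each group thus had 1 high and 1 low library in this cluster. Neutrophil markers in microglia-like cells summed to 1582 and 2846, against 12797 and 1671, and their part in the levels was not tested.

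Neutrophil-like cells, without cluster 14, had the lowest family level of the named classes but separated groups. The sum was 88.4 and 58.7 normalised CPM in Reg1-MO, against 34.1 and 17.0 in Ctrl-MO (log2 ratio 1.52, and 1.10 without Ctrl-MO 2). Gbp2 had 47.8 and 29.4, against 15.7 and 6.54 (1.77 ± 0.36, edgeR adjusted p = 0.0639), from 131 and 196 UMIs against 247 and 126. Gbp3 had 4.75 and 2.85, against 0.953 and 0.727 (2.08 ± 0.47, edgeR adjusted p = 0.0805). In 5 of the 7 members tested both Reg1-MO libraries were above both Ctrl-MO libraries, against 20.4% of all genes, the other 2 being Gbp4 and Gbp8. No member was called with all 4 libraries. With 1 library left out, which leaves a group with 1 library, more genes passed in all: 3 members were called without Ctrl-MO 1 (1.65% of all genes), 1 without Ctrl-MO 2 (0.785%), 2 without Reg1-MO 1 (3.19%) and 1 without Reg1-MO 2 (1.41%), Gbp2 among them each time.

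Among the listed genes, Socs3, Ifi27l2a and Cxcl10 were some of those that rose by edgeR's quasi-likelihood test in neutrophil-like cells (0.394% of all genes were called higher). Ifi27l2a had 204 and 258 normalised CPM in Reg1-MO, against 72.4 and 39.9 in Ctrl-MO (2.05 ± 0.26, edgeR adjusted p = 0.0128). The groups did not overlap. The part of transcripts from other cells in these results was not tested.

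An unnamed cluster of 675 cells, cluster 14, had the highest family level of the myeloid clusters in 3 of the 4 libraries, with 4701 and 4811 CPM in Reg1-MO, against 2898 and 529 in Ctrl-MO. In Ctrl-MO 2 clusters 5 and 9 stood higher, with 1013 and 827. It was led by Cxcl2, Acod1, G0s2 and Il1r2, and 12 of 12 neutrophil markers were detected in it. By the naming rule it was given no cell type, since its leading genes held Hdc, a listed mast cell and basophil marker, and no listed neutrophil marker. Hdc was also a leading gene of neutrophil-like cluster 1. The marker score of cluster 14 was highest for neutrophils (1.23), with endothelial cells next (0.31). The median UMI count of cluster 14 was 0.315 of that of its libraries. It held 79 and 101 cells in Reg1-MO, against 302 and 193 in Ctrl-MO. Gbp2 had 2763 and 3173 normalised CPM in Reg1-MO, against 1614 and 275 in Ctrl-MO (1.65 ± 0.71, edgeR adjusted p = 0.405), and Gbp5 979 and 1295, against 512 and 78.2 (1.94 ± 0.73, edgeR adjusted p = 0.354). For 7 of 7 tested members both Reg1-MO libraries were above (22.0% of all genes), and edgeR called 0 (0% of all genes). DESeq2 called Gbp4 and Gbp8 (0.495% of all genes), as did edgeR without Ctrl-MO 2 (0.421%), and edgeR called 7 without Ctrl-MO 1 (6.49%). T cell markers here summed to 235 and 19.0 CPM, against 28.7 and 12.4, and were not tested for their part.

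**Figure D5:**
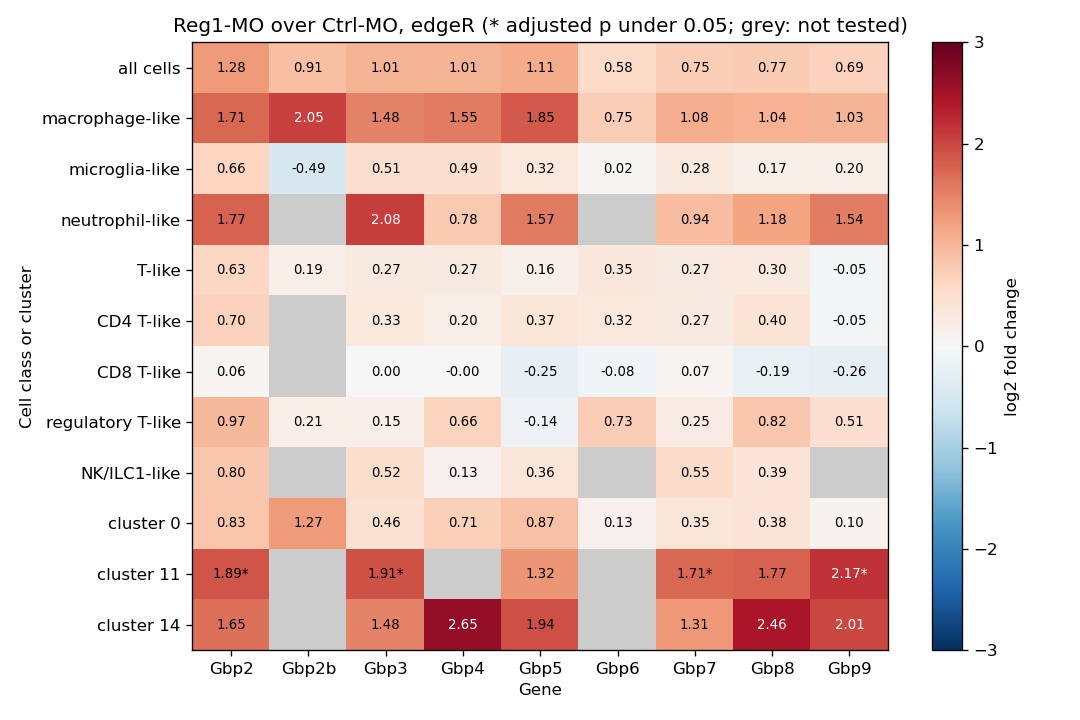
Log2 fold change of each of the 9 Gbp genes (columns), Reg1-MO over Ctrl-MO, in all cells, 8 classes and 3 clusters (rows). Red is higher in Reg1-MO, blue is lower, grey was not tested and an asterisk marks an edgeR adjusted p under 0.05. The only asterisks are those of Gbp2, Gbp3, Gbp7 and Gbp9 in cluster 11, and the palest rows are microglia-like, T-like, CD4 T-like and CD8 T-like cells.

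T-like cells had small differences. The family sum was 416 and 477 normalised CPM in Reg1-MO, against 431 and 275 in Ctrl-MO (log2 ratio 0.34, and 0.05 without Ctrl-MO 2). Gbp7, the leading gene, had 103 and 126, against 109 and 79.3 (0.27 ± 0.17, edgeR adjusted p = 0.593). Both Reg1-MO libraries were above for 3 of 9 members, Gbp3, Gbp6 and Gbp8 (22.0% of all genes). In CD4 T-like cells it was 2 of 8, Gbp3 and Gbp8 (23.6%). Without Ctrl-MO 1 edgeR called 4 members in T-like (1.22% of all genes) and 4 in CD4 T-like cells (1.37%).

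In CD8 T-like cells both Reg1-MO libraries were above for 0 of 8 tested members (20% of all genes) and both were below for 1, Gbp9 (20.4% of all genes), with 25.4 and 25.5, against 30.3 and 30.6 (-0.26 ± 0.15, edgeR adjusted p = 0.751). Their family sum was 403 and 468, against 513 and 348 (log2 ratio 0.02, and -0.24 without Ctrl-MO 2). The members' fold changes lay between -0.26 and 0.07, and the sign of the smallest ones changed with the method.

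Regulatory T-like cells, which restrain other T cells, had sums of 782 and 819 normalised CPM in Reg1-MO, against 696 and 520 in Ctrl-MO (log2 ratio 0.40, and 0.21 without Ctrl-MO 2). Without Ctrl-MO 1 edgeR called 3 members (1.49% of all genes). Both Reg1-MO libraries were above for 6 of 9 members (21.4% of all genes). Gbp6 had 66.1 and 55.3, against 33.6 and 40.1 (0.73 ± 0.21, edgeR adjusted p = 0.225), Gbp2 118 and 135, against 95.4 and 35.3 (0.97 ± 0.35, edgeR adjusted p = 0.332), and Gbp4 89.5 and 108, against 76.3 and 48.9 (0.66 ± 0.23, edgeR adjusted p = 0.313). Gbp5 was on the other side, with 84.5 and 90.4, against 96.3 and 96.3 (-0.14 ± 0.16, edgeR adjusted p = 0.807). The same cells had more transcripts of Ifng, the gene of interferon-γ itself, with 196 and 143, against 23.6 and 28.9 (2.69 ± 0.23, edgeR adjusted p = 0.0104; 0.0114% of all genes were called higher).

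NK/ILC1-like cells had 367 and 308 normalised CPM of the family in Reg1-MO, against 259 and 246 in Ctrl-MO (log2 ratio 0.42). Both Reg1-MO libraries were above for 4 of 6 tested members (20.3% of all genes). Gbp7 had 123 and 89.2, against 65.8 and 82.9 (0.55 ± 0.26, edgeR adjusted p = 0.490). Cxcl10 and Cd74 rose in these cells (edgeR adjusted p = 0.0464 for each; 0.113% of all genes were called higher), with Cxcl10 at 71.5 and 80.3, against 27.6 and 11.8. The class held 147 and 59 cells in Reg1-MO, against 76 and 67 in Ctrl-MO. Cxcl10 was also a leading gene of macrophage-like cluster 5, and the part of transcripts from other cells was not tested.

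The dendritic and B cell classes had too few cells in a library for the test. In conventional dendritic cell-like cells the family stood at 710 and 876 CPM in Reg1-MO, against 485 and 74.0 in Ctrl-MO, and Gbp2 at 402 and 482, against 281 and 21.3. In plasmacytoid dendritic cell-like cells it stood at 106 and 105, against 88.5 and 53.1. The groups did not overlap in either class, and Ctrl-MO 1 alone also lay below both Reg1-MO libraries. The lowest value of conventional dendritic cell-like cells rests on 80 UMIs in 49 cells.

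Whether the treatment effect differed between classes was tested as an interaction in edgeR with the library as a block. Against microglia-like cells, the log2 fold change in macrophage-like cells was larger by 0.85 to 2.61 for the 9 members. All 9 had an unadjusted p under 0.05 (2.89% of all genes did), from 0.0177 for Gbp4 to 0.0344 for Gbp5, but after Benjamini-Hochberg adjustment over 14170 genes 0 passed in edgeR's quasi-likelihood test (adjusted p = 0.985 for each; 0% of all genes passed). Against T-like cells 5 of 9 had an unadjusted p under 0.05 (12.8% of all genes), led by Gbp2 with a difference of 1.41 ± 0.42 (edgeR adjusted p = 0.279), and 0 passed after adjustment (0% of all genes). Against neutrophil-like cells 0 of 9 had an unadjusted p under 0.05 (11.6% of all genes), with differences from -0.75 to 0.95, and 0 passed after adjustment (0.153% of all genes). A difference of effect between classes was thus not shown after adjustment with all 4 libraries. Without Ctrl-MO 2 the unadjusted counts were 3 of 9 against microglia-like (2.59% of all genes), 5 of 9 against T-like (8.99%) and 2 of 9 against neutrophil-like cells (6.22%), and 0 passed after adjustment (0%, 0.131% and 1.03% of all genes). Without Ctrl-MO 1 8 passed against T-like cells (5.71%) and 2 against neutrophil-like cells (3.75%).

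The difference could also be seen in how many cells carried a Gbp transcript. Each cell was thinned to 3000 UMIs, which left out 465 and 286 cells of the Reg1-MO libraries and 681 and 552 of the Ctrl-MO libraries. Of the macrophage-like cells 82.0% and 75.2% then had at least 1 UMI of a member in Reg1-MO, against 64.7% and 22.4% in Ctrl-MO (unthinned 96.0% and 94.4%, against 86.8% and 57.1%). The groups did not overlap, with or without Ctrl-MO 2, and the two-sided exact permutation test gave p = 0.33, the smallest that 2 against 2 libraries allow. In microglia-like cells the shares were 92.1% and 75.6%, against 91.1% and 48.3% (exact permutation p = 0.667), while regulatory T-like cells had 83.9% and 84.1%, against 78.2% and 74.3% (exact permutation p = 0.33).

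In T-like cells the shares were 58.4% and 56.3%, against 57.7% and 45.2%, and in neutrophil-like cells, the class with the lowest level, 15.4% and 11.7%, against 9.89% and 5.18%. Neutrophil-like cells give the lowest share at this equal depth, and the other classes' shares stand above it; no class known to lack the genes was available as a background for free RNA. Within macrophage-like cells the level was spread over cells and not held by a few: the median cell had 9.30 and 6.75 family UMIs per 10000 in Reg1-MO, against 4.35 and 0.476 in Ctrl-MO, and the 25th percentile was 3.86 and 2.48, against 1.73 and 0. In cluster 11 the median cell had 1.04 and 1.52, against 0 and 0.

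Across 28 sums (7 classes in 4 libraries) the genes whose log2 level was most like the family sum, of 6078 genes considered, were Tap1 (Pearson r = 0.96), Parp14 (0.96), Wars (0.96), Psme1 (0.95) and Zbp1 (0.95). Tap1 is a peptide transporter of MHC class I loading, Psme1 a subunit of the proteasome activator and Zbp1 a sensor of nucleic acids. For Gbp2 they were Irgm1, Irf7 and Pomp, for Gbp5 Stat2, Wars and Tap1, and for Gbp4 Plaat3, Ifi206 and Ifi47. Between members r lay between 0.33 (Gbp2b and Gbp9) and 0.97 (Gbp4 and Gbp8). The 28 sums share their libraries and are not independent, so these values are descriptions.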

How the data were processed

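Single-cell RNA sequencing (10x 3′ version 3 chemistry, per the labels' protocols) was made of 2 Reg1-MO and 2 Ctrl-MO libraries. The authors deposited 1 matrix per library, written by Cell Ranger 5.0.1 per the file headers, with the UMI count of every gene in every barcode. Seurat 4.0 and the mm10 build are named in the submitters' processing notes, with no role given. The values are raw counts with no normalisation.

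Barcodes under 500 UMIs, under 200 genes or over 10% mitochondrial UMIs were left out. Scrublet's automatic threshold marked 421 and 1 cells of the Reg1-MO libraries and 251 and 0 of the Ctrl-MO libraries, so the highest-scoring cells were removed instead, at 0.8% per 1000 barcodes. Cells were scaled to 10000 UMIs and clustered on 3000 variable genes without the Gbp genes (40 principal components, 15 neighbours, Leiden resolution 1; scanpy 1.11.5). Of 35 clusters 27 were named from marker lists and 8, with 2556 of 26803 cells, were not. The thresholds for naming were chosen with the clusters in view, and differences between classes may come from these rebuilt names. Between 10 and 78 barcodes were shared by a pair of libraries.

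UMIs were summed per library and class or cluster with at least 50 cells in each library. They were tested with edgeR 4.0.16 (quasi-likelihood test, TMM, filterByExpr with a minimum count of 10, Benjamini-Hochberg adjustment over all genes of the fit) in R 4.3.3. Single clusters were tested only among the macrophage-like and microglia-like clusters and for cluster 14. Clusters of other classes were not tested singly, even where they had enough cells. DESeq2 1.42.0, RLE size factors, no low-count filter, a replicate block, clustering with the Gbp genes, no doublet removal and leaving out each library were alternatives, and fits of cluster 14, neutrophil-like cells with that cluster added, fixed cluster shares, and the class order and differences between classes without each library, were chosen after seeing the data. The fits were also run on data simulated from the macrophage-like and T-like sums, not from single clusters, and the outcome is not given here. Normalised CPM use the TMM factors. Intervals between libraries are given as SD; with 2 libraries per group an exact permutation test cannot go below p = 0.33. Beside the 9 members, up to 4 called genes of a list with the smallest p were named, or, where none was called, up to 2 with the highest mean CPM; genes most like the family were taken by Pearson's r of log2(CPM + 1) among genes with a mean of at least 20 CPM. The members and lists were chosen with earlier results of these data known. The promoter and annotation sequences came from RefSeq and GENCODE.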

Additional observations from a re-analysis of the deposited data

How the results depend on the processing

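Of 114 recomputed counts of called members 87 stayed within 1.5 times of the reported count, 25 were higher and 2 lower. The reported count was 0 everywhere but in cluster 11, and a 0 that stayed 0 is among those within. A lower count was possible only in cluster 11. Of 912 member fold changes 765 kept direction and side of the threshold, 92 passed it newly, 5 no longer passed it and 50 changed sign. Of 81 family sums 71 moved by less than the spread between libraries and 10 by more, and 35 of 36 shares of cells moved by less. For the sums this spread is the SD within groups on the log2 scale, which includes the gap between the Ctrl-MO libraries. A move below it can still change the sign or much of the size, so this count does not show stability. The microglia-like log2 ratio turned negative without Ctrl-MO 2 and with fixed cluster shares, and the CD8 T-like one without Ctrl-MO 2. The macrophage-like ratio fell with fixed cluster shares. All of these count as moved by less. The causes were not tested. Without the filter on low counts edgeR called 9 members in macrophage-like cells (5.03% of all genes were called higher in the same fit), 5 in neutrophil-like (1.83%), 2 in regulatory T-like (0.961%) and 1 each in T-like (1.43%) and CD4 T-like cells (1.48%), 4 in cluster 0 (1.59%) and 7 in cluster 14 (1.02%), and 5 members differed between macrophage-like and T-like cells (2.19% of all genes). DESeq2 called 1 in cluster 0 (0.622%) and 2 each in clusters 11 (1.96%) and 14 (0.495%). The replicate block gave 3 in neutrophil-like (1.70%) and 1 in regulatory T-like cells (0.799%), 4 in cluster 0 (1.54%) and 7 in cluster 14 (2.05%). The numbers are not stated to pair libraries, and same-numbered libraries' deviations correlated by -0.033 to 0.52. Without thinning the difference in share of regulatory T-like cells was 2.89 percentage points. Signs changed for Gbp6 in microglia-like cells without doublet removal (-0.013). They also changed for 3 members in CD8 T-like cells. The Gbp4 log2 fold change, CD8 T-like, was 0.011 with DESeq2, 0.013 without the filter and 0.00577 with the block. The Gbp3 log2 fold change, CD8 T-like, was -0.013 with the block, -0.00781 when clustered with the Gbp genes and -0.065 without doublet removal. The Gbp2 log2 fold change, CD8 T-like, was -0.0673 without doublet removal.

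With 1 library left out at a time, the log2 ratio of the family sum ran 0.35 to 2.45 in all cells, 0.0489 to 0.715 in T-like cells, 0.741 to 3.21 in macrophage-like cells, -0.162 to 1.54 in microglia-like cells, 1.10 to 2.11 in neutrophil-like cells. It ran 0.0507 to 0.909 in CD4 T-like cells, -0.239 to 0.327 in CD8 T-like cells, 0.205 to 0.626 in regulatory T-like cells, 1.17 to 2.68 in cluster 11, 0.932 to 3.43 in cluster 14. In macrophage-like and microglia-like cells the lowest value came without Ctrl-MO 2 and the highest without Ctrl-MO 1. The counts of called members are given with the share of all genes called higher over the same fits. They ran 0 to 4 in T-like (0% to 1.22%), 0 to 9 in macrophage-like (0% to 9.79%), 1 to 3 in neutrophil-like (0.785% to 3.19%), 0 to 4 in CD4 T-like (0.242% to 1.37%) and 0 to 3 in regulatory T-like cells (0% to 1.49%), 0 to 3 in cluster 0 (0.0381% to 0.956%), 2 to 5 in cluster 11 (1.91% to 4.81%) and 0 to 7 in cluster 14 (0.0426% to 6.49%). Members whose effect differed from that in macrophage-like cells ran 0 to 8 for T-like (0% to 5.71%) and 0 to 2 for neutrophil-like cells (0.0518% to 3.75%). Members whose log2 fold change took both signs are these. For all cells the ranges were -0.0202 to 1.64 (Gbp6), -0.112 to 2.35 (Gbp2b). For NK/ILC1-like cells the ranges were -0.21 to 0.532 (Gbp4). For T-like cells the ranges were -0.262 to 0.586 (Gbp2b), -0.109 to 0.0328 (Gbp9), -0.0689 to 0.774 (Gbp4). For microglia-like cells the ranges were -1.37 to 1.20 (Gbp2b), -0.157 to 2.69 (Gbp2), -0.0647 to 1.47 (Gbp3), -0.193 to 1.88 (Gbp4), -0.656 to 0.833 (Gbp6), -0.207 to 1.02 (Gbp7), -0.508 to 0.999 (Gbp8), -0.161 to 0.71 (Gbp9). For neutrophil-like cells the ranges were -2.29 to 2.22 (Gbp4), -0.151 to 2.24 (Gbp8). For CD4 T-like cells the ranges were -0.163 to 0.83 (Gbp4), -0.104 to 1.49 (Gbp5), -0.0601 to 1.06 (Gbp6), -0.267 to 0.188 (Gbp9). For CD8 T-like cells the ranges were -0.185 to 0.277 (Gbp4), -0.466 to 0.139 (Gbp5), -0.266 to 0.253 (Gbp6), -0.34 to 0.0488 (Gbp8), -0.319 to 0.776 (Gbp2), -0.234 to 0.412 (Gbp3), -0.156 to 0.415 (Gbp7). For regulatory T-like cells the ranges were -0.382 to 1.10 (Gbp2b). For cluster 0 the ranges were -0.186 to 0.385 (Gbp6).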
